A study of Mus musculus with 6 samples.

Results

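The genes described here encode the proteasome and the machinery that loads its peptides onto MHC class I molecules. They were chosen by name from the annotation of the Affymetrix mouse expression array: every symbol that starts with Psma, Psmb, Psmc, Psmd, Psme, Psmf or Psmg and a digit, plus B2m, Tap1, Tap2, Tapbp, Tapbpl, Erap1, Nlrc5, H2-K1, H2-D1, H2-T23 and H2-M3. The annotation holds 62 such symbols, and 59 of them, among 18193 genes in all, have a probe set that names no other gene. Psme2, Psme2b and H2-T23 share every probe set with another symbol and so have no value here. The choice used no measured value. The samples are cytotoxic T cells from spleens of P14 TCR mice (strain C57Bl/6), activated for 24 h with the gp33 peptide and then infected with a retrovirus that encodes a GFP-tagged HDAC7 mutant lacking phosphorylation. Cells were sorted into 3 GFP positive samples, which express the mutant, and 3 GFP negative samples, labelled control. The P14 receptor transgene, the peptide and the exposure to virus are therefore common to both groups, and the control cells are uninfected or non-expressing cells of the infected cultures; cells given an empty vector were not analysed here. Each sample was hybridised to its own array, and the labels call the 3 samples of a group biological replicates without naming the animals or cultures they came from. The p-values thus cover the variation among the samples as labelled, which may be technical.

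The proteasome is a barrel of alpha and beta rings, the 20S core, that degrades ubiquitin-tagged proteins delivered by the 19S cap. The beta subunits Psmb5, Psmb6 and Psmb7 carry the cutting activity in most cells. Interferon, and lymphoid identity, replace them in newly built cores by Psmb8, Psmb9 and Psmb10, which gives the immunoproteasome, whose cuts favour peptides that fit class I molecules. Those peptides pass into the endoplasmic reticulum through the transporter Tap1-Tap2 and are fitted to a heavy chain and beta-2 microglobulin with the help of tapasin.

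GFP positive cells had more signal for the immunoproteasome genes with a value and for most class I presentation genes. They had less for part of the genes classed here as constitutive. That class holds Psmb5, Psmb6 and Psmb7, and also subunits that both kinds of proteasome share, assembly chaperones and other regulators. All 4 immunoproteasome genes with a value rose, by 1.28-fold for Psmb8 to 1.52-fold for Psmb10. Of 10 class I presentation genes 9 rose, up to 2.01-fold for Tap2, and Erap1 did not pass. Of 41 constitutive genes tested 18 fell, the largest by 1.66-fold (Psmg3), 23 did not pass and 0 rose, and the same count of 0 holds at an unadjusted limma p under 0.05. Calls are from limma with Benjamini-Hochberg adjustment over 13194 genes at 0.05, where 42.1% of all genes tested were called, 24.6% higher and 17.5% lower, in GFP positive cells. Against those shares, 100% of the immunoproteasome genes and 90% of the class I genes were called higher, and 43.9% of the constitutive genes were called lower. The median change on the log2 scale was 0.52 for the immunoproteasome, 0.61 for class I presentation and -0.24 for constitutive genes, beside -0.02 over all genes tested. Without GFP negative 1 and GFP positive 3 together, a pair that earlier results of these data had set apart, 3 immunoproteasome genes (Psmb8 lost its call) and 6 class I genes rose and 11 constitutive genes fell. In that fit 2074 of the 13194 genes tested were called higher and 1251 lower, against 3248 and 2309 with all samples. The mean log2 signal of bacterial control probe sets was 0.60 to 0.72 over the 6 arrays, and its part in the results was not tested.

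**Figure D1:**
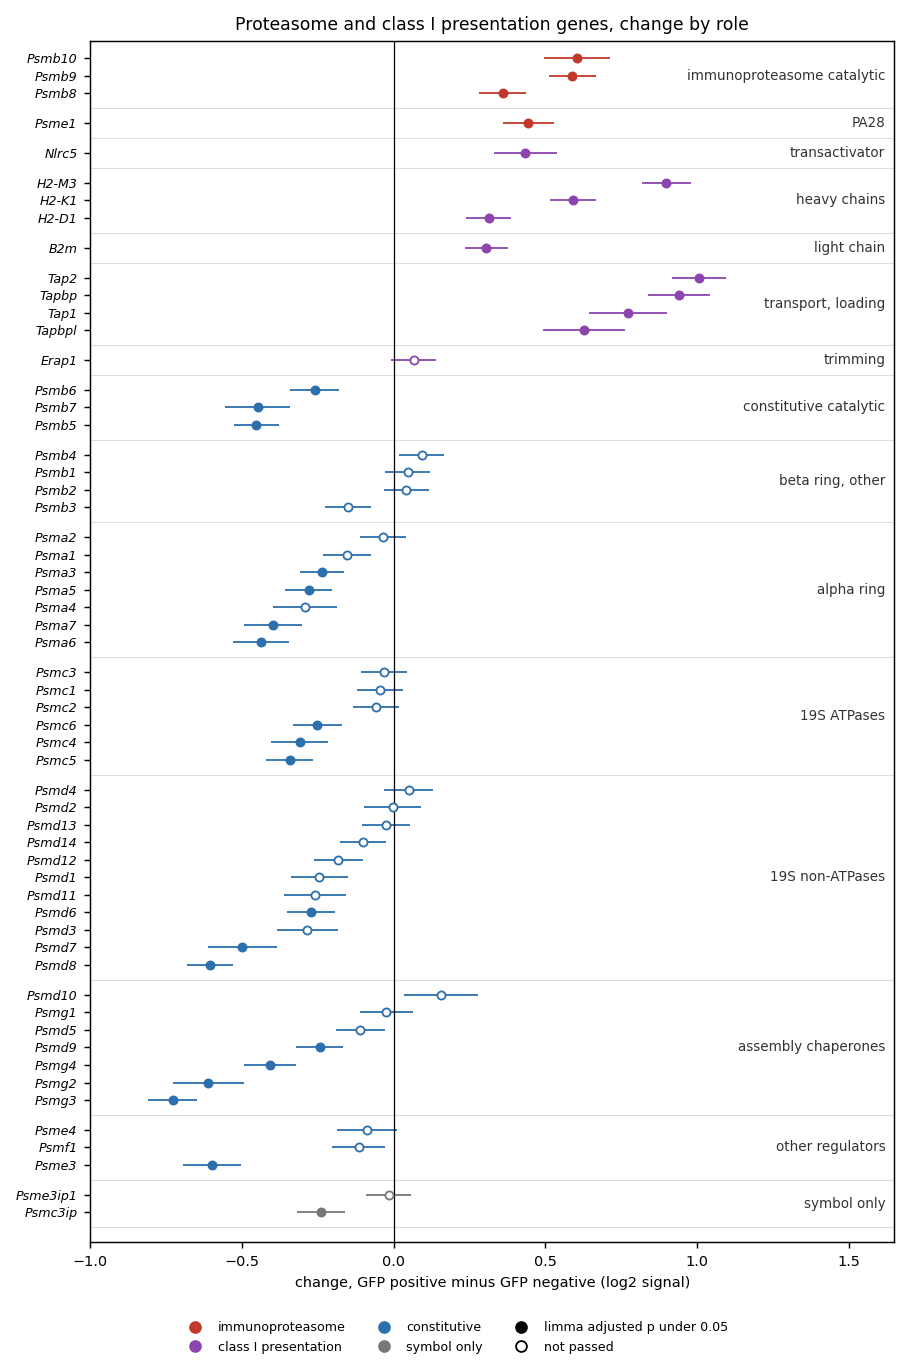
Change in log2 signal (GFP positive minus GFP negative, 3 samples a group) of each member tested, grouped by role; bars are the standard error from limma and filled points passed an adjusted p of 0.05. The immunoproteasome and class I genes lie to the right of 0, from 0.07 for Erap1 to 1.00 for Tap2, and 36 of the 41 constitutive genes lie to the left.

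The scale of the arrays matters for the smaller changes. Subtracting from every array the median of its probe sets that pass the filter on dim signals (centring) moved the median change of all genes tested from -0.02 to -0.14. The share of higher genes among all calls then fell from 58.4% to 39.6%, and among the members called from 40.6% to 28.2%. Under that scaling the medians were 0.40 for the immunoproteasome, 0.49 for class I presentation and -0.36 for constitutive genes. Measured from the median of all genes they were 0.54, 0.63 and -0.22 with either scaling. This had to be so, because centring moves the change of every gene by the same amount. After quantile normalization, where it need not be so, they were 0.57, 0.66 and -0.19. The number of constitutive falls was 22 after quantile normalization and 27 after centring, against 18 of 41 with the values as deposited. Falls over all 13194 genes tested also grew, to 2765 and 3819, against 2309. The rises of B2m and H2-D1 lost their calls when arrays were centred (0.19 and 0.20).

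The targeted gene and the labelled cell type were examined first. Hdac7 signal was 9.95-fold higher in GFP positive cells, from 4.83 ± 0.03 to 8.15 ± 0.05 (log2, SD, n = 3). All 7 T cell and CD8 markers with a value were past the dim filter, and their summed linear signal was 5528 to 6700 in GFP negative and 8065 to 9138 in GFP positive samples. Of the 7, 5 were called higher (71.4%, beside 24.6% of all genes tested). Cd8a and Cd8b1 rose by 1.24 and 1.15, and Cd3g, Cd247 and Cd3e by 0.67, 0.57 and 0.55. Cd3d and Thy1 changed by -0.05 and 0.22 and did not pass. B cells, macrophages and dendritic cells also carry much immunoproteasome and class I RNA, so their markers were read beside these results. The summed linear signal of 7 B cell markers was 34.7 to 41.6 in GFP negative and 32.9 to 39.3 in GFP positive samples, with 4 of the 7 below the filter, Ms4a1 among them. That of 6 class II genes, which antigen-presenting cells express, was 178 to 212 against 180 to 200, with only Ciita called, lower by 0.35. Most of that sum is H2-DMa and H2-Ab1, which changed by -0.11 and 0.40, H2-Ab1 without overlap of the groups. The dimmer H2-Aa, H2-Eb1 and Cd74 changed by -0.89, -0.49 and -0.14. GFP negative 3 stood above the other controls in some of these genes: H2-Aa read 1.26, 1.47 and 4.17 (log2) in GFP negative 1, 2 and 3, H2-Eb1 2.40, 2.38 and 3.29, Cd74 3.05, 2.87 and 3.99, and the B cell marker Ms4a1 0.94, 0.81 and 2.04. Without GFP negative 3 all 4 immunoproteasome and 9 class I rises were still called. That sample was the highest control in 12 of the 13 members called higher, so leaving it out enlarges most rises. The class medians were then 0.55 and 0.67, against 0.52 and 0.61. These calls therefore cannot show what part such cells had. The summed linear signal of 5 dendritic cell markers was 19.8 to 19.9 against 14.9 to 17.6, with Flt3, Zbtb46 and Siglech called lower. The 8 macrophage markers summed to 26.4 to 28.8 against 29.0 to 29.9, where Cd68 rose from 1.76 to 2.86 on the log2 scale. Csf1r, Mpeg1, Lyz2 and Fcgr3 changed by -0.32, -0.10, 0.02 and 0.12 and did not pass, and Adgre1, Itgam and Cd14 lay below the filter. The 4 CD4 T cell markers summed to 22.3 to 24.4 against 25.2 to 27.5, with Zbtb7b called higher, and the NK and red cell precursor markers with a value all lay below the filter. The part of these cells in the results was not tested, and in such bulk samples fewer cells of a type and less RNA per cell cannot be told apart.

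The inducible catalytic subunits rose in every GFP positive sample. Psmb8, which replaces Psmb5 and is also called LMP7, read 10.99, 11.02 and 11.13 (log2 signal) in GFP negative 1, 2 and 3 and 11.41, 11.40 and 11.41 in GFP positive 1, 2 and 3. This was a rise of 0.36 ± 0.08 (SE; limma adjusted p = 0.0069), and the groups did not overlap. Every GFP positive sample lay above every control in 29.7% of all genes tested. Psmb9 (LMP2), the counterpart of Psmb6, read 9.38, 9.42 and 9.52 against 10.05, 10.01 and 10.04, a rise of 0.59 ± 0.08 (limma adjusted p = 7.2e-04). The GFP positive samples differed by an SD of only 0.02, against 0.08 in the controls. Psmb10 (MECL-1), the counterpart of Psmb7, had the widest control spread, with 9.04, 8.81 and 9.21 against 9.60, 9.60 and 9.67, and rose by 0.60 ± 0.11 (limma adjusted p = 0.0031). Psme1, the alpha subunit of the PA28 cap that opens the core and favours class I peptides, read 10.38, 10.44 and 10.51 against 10.81, 10.86 and 10.99. It rose by 0.44 ± 0.08, or 1.36-fold (limma adjusted p = 0.0039). The dimmer of the 2 Psmb8 probe sets, at a mean of 5.76 and of the kind that can bind other sequences, changed by only 0.0048 and did not pass.

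Each constitutive catalytic subunit moved the other way. Psmb5, the chymotrypsin-like subunit, read 9.24, 9.23 and 9.31 in GFP negative and 8.79, 8.78 and 8.85 in GFP positive samples, a fall to 1.37-fold less signal (-0.45 ± 0.07 SE, limma adjusted p = 0.0020). Psmb6, the caspase-like subunit, read 9.29, 9.36 and 9.33 against 9.10, 9.13 and 8.98, with a change of -0.26 ± 0.08 (limma adjusted p = 0.031). Psmb7, the trypsin-like subunit, read 7.12, 6.997 and 6.92 against 6.45, 6.48 and 6.76, with a change of -0.45 ± 0.11 (limma adjusted p = 0.011). The groups did not overlap for any of the 3 genes. Such an order, with every GFP positive sample below every control, was found in 24.2% of all genes tested. The call of Psmb6 was lost without GFP negative 1, 2 or 3 or GFP positive 3, with changes of -0.28 to -0.21. Taken as a difference within each array, inducible minus constitutive, the pairs shifted by 0.81 (Psmb8 and Psmb5), 0.85 (Psmb9 and Psmb6) and 1.05 (Psmb10 and Psmb7) on the log2 scale. A shift common to all genes of an array cancels in these differences, while a normalization that varies with signal level need not. The differences were 1.75 to 1.82 in GFP negative and 2.56 to 2.62 in GFP positive samples for the first pair. They were 0.06 to 0.19 and 0.88 to 1.06 for the second, and 1.82 to 2.29 and 2.92 to 3.15 for the third. A shift of such a difference shows unequal change of the pair, and its level has no meaning, since probe sets differ in brightness.

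**Figure D2:**
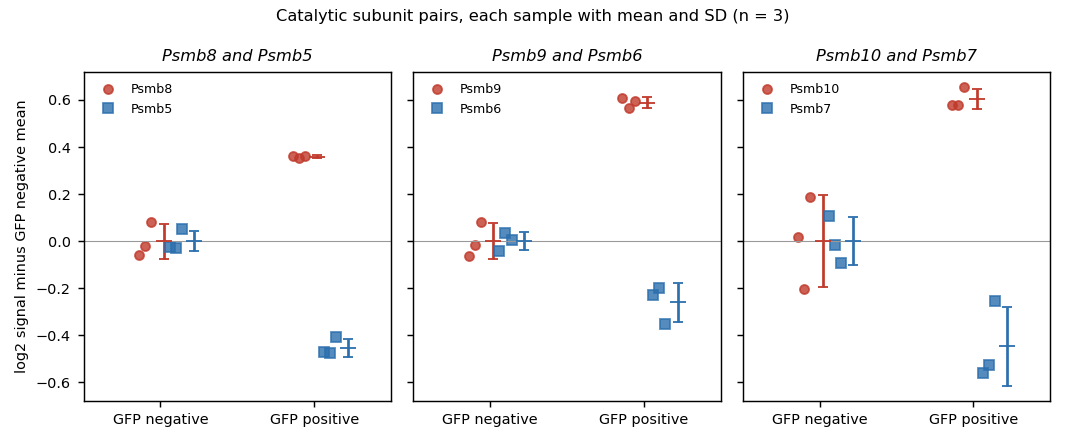
Log2 signal of the 3 catalytic pairs in each sample, minus the mean of the GFP negative samples; circles are inducible and squares constitutive subunits, with the mean and SD (n = 3) beside them. In GFP positive cells the circles lie at means of 0.36 to 0.60 and the squares at -0.45 to -0.26.

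Gene position and promoter sequence are shared features that the choice by name did not use. All 59 members with a value were found in the mouse RefSeq gene table (GRCm38.p6). Among its protein-coding genes Psmb9, Tap1, Psmb8 and Tap2 are direct neighbours in that order on chromosome 17, and all 4 rose. Of the class I members 6 lie on that chromosome, which carries the mouse MHC. Psmb9 and Tap1 start on opposite strands with 225 bases between their starts, so that their RefSeq promoter windows, 250 bases before to 50 after each start, share 275 bases. The Tap1 window (chr17:34187306-34187605, plus strand) is printed because it holds the starts of both genes, that of Psmb9 at its base 25. B2m (chr2:122147437-122147736, plus strand), Psme1 (chr14:55578244-55578543, plus strand), Psmb8 (chr17:34197945-34198244, plus strand) and H2-K1 (chr17:34000298-34000597, minus strand) stand for other genes that rose. Psmb5 (chr14:54617946-54618245, minus strand) and Psmb6 (chr11:70525107-70525406, plus strand) stand for the catalytic genes that fell. Capitals mark matches, on either strand, to 4 letter patterns: a pair of GAAA separated by any 2 bases, the core of interferon response elements bound by IRF factors; TTCNNNGAA, the STAT palindrome; CCAAT, the NF-Y box found in class I promoters; and TGACNNNGC, the core of elements bound by NRF factors, which are known regulators of constitutive proteasome genes.
Tap1 and Psmb9: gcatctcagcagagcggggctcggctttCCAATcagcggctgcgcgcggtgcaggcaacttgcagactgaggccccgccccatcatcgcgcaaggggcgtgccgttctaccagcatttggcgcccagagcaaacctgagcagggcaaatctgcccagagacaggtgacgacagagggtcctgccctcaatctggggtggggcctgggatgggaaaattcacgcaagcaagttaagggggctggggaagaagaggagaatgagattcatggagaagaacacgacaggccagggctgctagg
B2m: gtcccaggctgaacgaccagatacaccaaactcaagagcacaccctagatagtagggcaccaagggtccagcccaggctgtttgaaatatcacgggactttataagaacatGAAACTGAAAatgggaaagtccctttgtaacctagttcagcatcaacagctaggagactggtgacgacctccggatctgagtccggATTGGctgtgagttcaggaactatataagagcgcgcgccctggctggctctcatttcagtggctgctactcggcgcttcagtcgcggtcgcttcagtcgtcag
Psme1: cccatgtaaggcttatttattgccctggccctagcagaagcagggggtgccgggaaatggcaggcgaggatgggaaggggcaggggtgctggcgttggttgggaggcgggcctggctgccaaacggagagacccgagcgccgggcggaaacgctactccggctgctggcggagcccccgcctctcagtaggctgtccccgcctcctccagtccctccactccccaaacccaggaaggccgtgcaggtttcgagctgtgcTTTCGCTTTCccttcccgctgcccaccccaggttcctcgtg
Psmb8: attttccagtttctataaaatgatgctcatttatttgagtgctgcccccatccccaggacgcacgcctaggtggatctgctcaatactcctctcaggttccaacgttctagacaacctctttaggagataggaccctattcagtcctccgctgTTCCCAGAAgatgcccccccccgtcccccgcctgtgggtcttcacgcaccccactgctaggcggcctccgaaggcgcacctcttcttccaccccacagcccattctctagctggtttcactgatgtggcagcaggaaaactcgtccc
H2-K1: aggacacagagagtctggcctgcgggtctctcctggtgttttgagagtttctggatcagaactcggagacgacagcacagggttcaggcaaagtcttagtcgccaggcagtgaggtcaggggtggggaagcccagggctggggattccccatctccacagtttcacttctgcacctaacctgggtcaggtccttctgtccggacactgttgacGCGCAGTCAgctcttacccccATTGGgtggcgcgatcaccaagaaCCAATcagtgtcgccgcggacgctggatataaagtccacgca
Psmb5: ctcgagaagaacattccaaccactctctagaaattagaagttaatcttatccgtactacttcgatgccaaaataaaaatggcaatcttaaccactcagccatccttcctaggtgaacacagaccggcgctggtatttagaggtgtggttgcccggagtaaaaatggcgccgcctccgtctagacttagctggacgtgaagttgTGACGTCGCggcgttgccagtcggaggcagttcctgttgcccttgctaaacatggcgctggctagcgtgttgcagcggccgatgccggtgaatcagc
Psmb6: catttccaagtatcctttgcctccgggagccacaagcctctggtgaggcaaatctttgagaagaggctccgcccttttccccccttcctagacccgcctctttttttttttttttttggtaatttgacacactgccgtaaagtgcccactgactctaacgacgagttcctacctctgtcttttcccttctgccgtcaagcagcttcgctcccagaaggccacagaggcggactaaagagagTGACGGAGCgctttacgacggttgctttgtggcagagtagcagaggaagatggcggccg

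Promoter windows were found for 48 members, 4 of them immunoproteasome, 7 class I and 35 constitutive genes, and matches to different patterns did not overlap. CCAAT stood in 7 of 8 class I windows (87.5%), missing from that of Erap1 alone. By gene this was 6 of 7, since 2 of the windows overlap and belong to H2-K1. It stood in 1 of 4 immunoproteasome windows and in 13 of 37 constitutive windows (35.1%), beside 37.4% of all 32851 windows in the table. The Tap1 match (-222 to -218 from its start) and the Psmb9 match (-8 to -4) are the same bases of their shared window. That site is thus counted in both classes. The IRF pattern stood in the windows of B2m, upstream of the start, of Psme1, just after the start, and of Erap1 across it. It was also found in 4 of 37 constitutive windows (10.8%), beside 3.44% of all windows. TTCNNNGAA stood in those of Psmb8 and H2-M3 and in 2 constitutive windows, beside 8.30% of all, and TGACNNNGC in 6 of 37 constitutive windows (16.2%), among them Psmb5 and Psmb6, beside 12.4% of all. TGACNNNGC also stood in 2 of 8 class I windows (25.0%), the overlapping windows of H2-K1, which rose. By gene this was 1 of 7. A match describes letters in this window and is no evidence of binding.

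The peptide transporter and the tapasins, which load class I molecules, all rose. Tap2, the transporter subunit, read 7.70, 7.67 and 7.86 in GFP negative and 8.67, 8.84 and 8.74 in GFP positive samples, a rise of 1.00 ± 0.09 (SE; limma adjusted p = 1.4e-04). Its partner Tap1 read 8.24, 8.38 and 8.63 against 9.03, 9.17 and 9.37, a rise of 0.77 ± 0.13 (limma adjusted p = 0.0021). Although GFP negative 3 stood above the other controls, the groups did not overlap for either subunit. Tapbp (tapasin), which bridges the transporter and the empty heavy chain, read 9.03, 9.10 and 9.34 against 10.01, 10.11 and 10.16, or 1.92-fold more (limma adjusted p = 3.1e-04). Tapbpl, a tapasin relative that edits peptides outside the loading complex, read 7.42, 7.55 and 7.79 against 7.97, 8.36 and 8.31, a rise of 0.63 ± 0.14 (limma adjusted p = 0.0075). Other probe sets of Tapbp and Tapbpl rose by 0.81 and 0.74. The other Tap1 probe set past the dim filter, at a mean of 2.48, changed by -0.04 and did not pass.

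All 3 heavy chains with a value and the light chain rose. H2-K1, a classical heavy chain, read 11.08, 11.09 and 11.16 against 11.65, 11.74 and 11.71, a rise of 0.59 ± 0.08 (limma adjusted p = 6.1e-04). Its other probe sets, at means of 10.74, 9.47 and 5.58, changed by 0.25, 0.68 and 0.15, and only the change of 0.68 passed. H2-D1, the other classical heavy chain of this strain, read 10.92, 10.85 and 10.92 against 11.21, 11.25 and 11.16, a rise of 0.31 ± 0.08 (limma adjusted p = 0.012). In H2-D1, H2-K1 and their relatives, sequences are so alike that most of these probe sets can bind several of them, and the gene is uncertain. Represented instead by a probe set without that mark, H2-D1 rose by 0.66 (limma adjusted p = 0.0011), a setting chosen after seeing the data. H2-M3, a nonclassical heavy chain that presents formylated bacterial peptides, read 6.71, 6.78 and 6.90 against 7.70, 7.67 and 7.72, or 1.86-fold more (limma adjusted p = 1.5e-04). B2m, the light chain common to all class I molecules, read 11.93, 11.95 and 11.91 against 12.25, 12.23 and 12.23, a rise of 0.31 ± 0.07 (limma adjusted p = 0.010). Its spread within groups was only 0.02 and 0.01, and the other B2m probe set rose by 0.40. Without GFP negative 1 and GFP positive 3 together B2m, Tapbpl and Nlrc5 lost their calls.

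Nlrc5, the transactivator that drives class I, B2m, Tap1 and Psmb9 promoters, read 7.63, 7.74 and 7.94 in GFP negative and 8.11, 8.30 and 8.21 in GFP positive samples. It rose by 0.43 ± 0.10 (limma adjusted p = 0.012), and the groups did not overlap. Erap1, the aminopeptidase that trims peptides in the endoplasmic reticulum, read 6.56, 6.59 and 6.57 against 6.61, 6.60 and 6.70. The samples did not overlap, but the change of 0.07 ± 0.07 did not pass (limma adjusted p = 0.50), and it was -0.05 with centred arrays. Its other probe set, at a mean of 5.61, rose by 0.35 (limma adjusted p = 0.022 over 27022 probe sets), so the brighter probe set does not settle this gene.

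**Figure D3:**
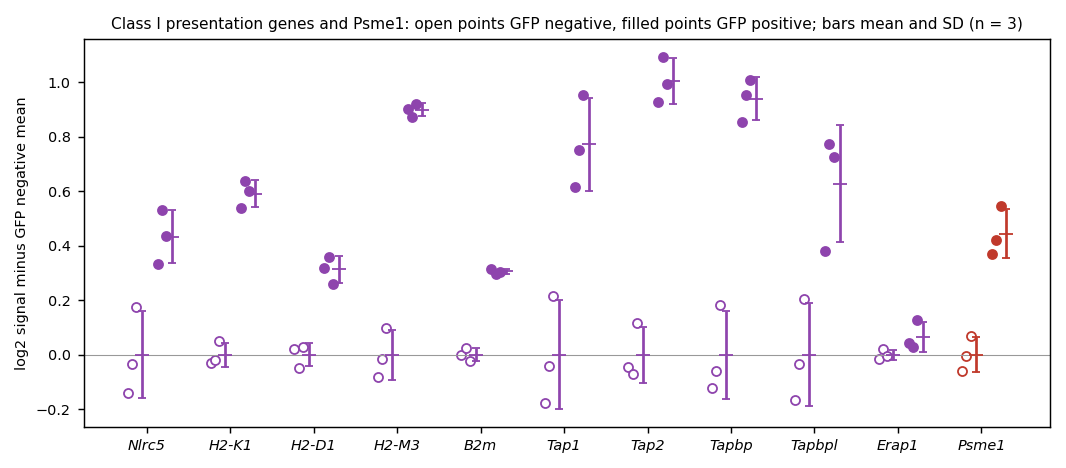
Log2 signal of the class I presentation genes and Psme1 in each sample, minus the mean of the GFP negative samples; open points are GFP negative and filled points GFP positive samples, with the mean and SD (n = 3) beside them. In the 9 class I genes called higher, and in Psme1, every filled point lies above every open point, as in 29.7% of all genes tested.

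Among the core subunits that both kinds of proteasome share, 4 of 7 alpha subunits tested fell (Psma6 by 0.44, Psma7 by 0.40, Psma5 by 0.28 and Psma3 by 0.24 on the log2 scale), and Psma1, Psma2 and Psma4 changed by -0.15, -0.04 and -0.29 without passing. The alpha subunits called lower were 57.1% of those tested, beside 17.5% of all genes tested. Psma6 read 10.20, 10.11 and 10.11 in GFP negative and 9.78, 9.55 and 9.77 in GFP positive samples (limma adjusted p = 0.0062), with no overlap. Psma8, an alpha subunit of the testis, lay at background in every sample, at 0.46 to 0.83, and was not tested. The structural beta subunits did not pass, with changes of 0.05, 0.04, -0.15 and 0.09 for Psmb1, Psmb2, Psmb3 and Psmb4. Of these Psmb4 was called higher with 32 added in linear units. Psmb3 was called lower when arrays were centred (-0.27), with 32 added (-0.14) and with a prior that follows intensity (-0.15). The beta subunit of thymic epithelium, Psmb11, was also at background, at 0.94 to 1.22.

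In the 19S cap, which unfolds and threads substrates, 6 of 17 subunits fell and the others did not pass. The share called lower was 50% of the cap ATPases and 27.3% of its other subunits, beside 17.5% of all genes tested. Of its 6 ATPases Psmc5, Psmc4 and Psmc6 fell, by 0.34, 0.31 and 0.25, and Psmc1, Psmc2 and Psmc3 changed by -0.06 to -0.03. Of its 11 other subunits Psmd8, Psmd7 and Psmd6 fell. Psmd8, a lid subunit, had the largest fall of the cap, from 9.50, 9.58 and 9.49 to 8.90, 8.89 and 8.97 (1.52-fold less; limma adjusted p = 5.7e-04). Psmd7, which pairs with the deubiquitinase Psmd14, read 7.90, 7.94 and 7.76 against 7.14, 7.48 and 7.49, a change of -0.50 ± 0.11 (limma adjusted p = 0.0093). Psmd14 itself changed by -0.10 and Psmd2, the scaffold of the base, by -0.0038, and neither passed. The groups of Psmd1, Psmd3, Psmd11 and Psmd12 did not overlap either, at changes of -0.28 to -0.18 that did not pass. Over all genes tested, 24.2% had every GFP positive sample below every control, against 25 of the 41 constitutive genes. The reverse order was found in 29.7% of all genes and in 1 constitutive gene. With the replicate number as a block Psmd3 passed, at the same change.

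Of 7 assembly chaperones 4 fell (57.1%), and of the 3 other activators and inhibitors 1 did (33.3%), beside 17.5% of all genes tested. Psmg3, a chaperone of the first steps of alpha ring assembly, read 7.39, 7.45 and 7.54 in GFP negative and 6.66, 6.80 and 6.73 in GFP positive samples, a change of -0.73 ± 0.08 (limma adjusted p = 3.6e-04). Its partner in that step, Psmg4, fell by 0.41. Psmg2, which binds alpha subunits together with Psmg1, read 8.12, 7.996 and 7.91 against 7.52, 7.17 and 7.51, a change of -0.61 ± 0.12 (limma adjusted p = 0.0041), while Psmg1 changed by -0.02 and did not pass. Of the chaperones of the 19S base Psmd9 fell by 0.24, and Psmd5 and Psmd10 changed by -0.11 and 0.16 without passing. Psme3 (PA28 gamma), the nuclear relative of Psme1, read 6.84, 6.95 and 7.01 against 6.19, 6.34 and 6.47. It fell by 0.60 on the log2 scale (limma adjusted p = 0.0019), opposite to Psme1. The nuclear cap Psme4 (PA200) and the inhibitor Psmf1 (PI31) changed by -0.09 and -0.12 and did not pass. Psmc3ip and Psme3ip1 bear matching symbols but encode no subunit of the proteasome, the first being a recombination factor; they changed by -0.24, with a call, and by -0.02.

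Not all falls were equally firm. Of the 18 constitutive falls 11 passed whichever sample was left out, and all 13 rises did. The exceptions were Psma3, lost without any 1 of the 6 samples (-0.26 to -0.22); Psma5, Psmc6 and Psmd9, each lost without 5 of them (-0.29 to -0.25, -0.27 to -0.22 and -0.25 to -0.22); and Psmc4, Psmd6 and Psmb6, each lost without 4 (-0.31 to -0.25, -0.29 to -0.23 and -0.28 to -0.21). The samples concerned were GFP negative 1, 2 and 3 and GFP positive 2 and 3 for Psma5. They were GFP negative 1, 2 and 3 and GFP positive 1 and 3 for Psmc6, and all but GFP negative 1 for Psmd9. They were GFP negative 1 and 2 and GFP positive 2 and 3 for Psmc4, and GFP negative 2 and 3 and GFP positive 1 and 2 for Psmd6. Psma4 passed without GFP positive 3 (-0.40), and Psmd1 and Psmd3 without GFP positive 2 (-0.32 and -0.37). Without GFP negative 2 the count of constitutive falls was 11 and without GFP negative 3 it was 12. Over all 13194 genes tested, 1744 and 1594 were lower in these fits, against 2309 with all samples. Psmc3ip lost its call in 5 of the 6 cases, all but GFP positive 2 (-0.26 to -0.21).

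Members with more than 1 probe set gave a check within the array. There were 34 of them, with 54 further probe sets past the dim filter, 31 of these for genes called. Of the 31, 25 changed in the direction of the gene, 12 passed the same way and 0 the opposite way by limma. Over all genes tested, 24.6% were called higher and 17.5% lower, on the brightest probe set of each gene. The 12 of 31 come from the separate fit over all probe sets past the filter. The shares of all genes are therefore no direct background for them. The 2 brightest probe sets changed alike for Psmd6 (-0.27 and -0.43), Psmg2 (-0.61 and -0.52) and Psma6 (-0.44 and -0.36), while a dim one of Psmg2 (mean 1.87) changed by -0.03 and did not pass. The further probe sets of Psmc6 fell by 0.54 and 0.55, more than its brightest. A dim probe set of Psma1 (mean 2.15) rose by 0.66, against -0.15 on the brightest. The 6 that went against a called gene did not pass: those of Psmd7, Psmg3 and Psma3 changed by 0.20, 0.16 and 0.14, that of Tap1 by -0.04 and 2 of H2-D1 by -0.10 and -0.19. With all probe sets of a gene averaged, Psmb8, H2-D1, Psmd7, Psmg3, Psmc4, Psma3 and Psmc3ip lost their calls.

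Partners of the pathway were read from lists chosen for their role. Of 14 proteasome partners 2 fell, the 19S deubiquitinases Usp14 (-0.38 ± 0.08) and Uchl5 (-0.25 ± 0.08), and 0 rose, also at an unadjusted limma p under 0.05. That is 14.3% lower, below the 17.5% of all genes. Nfe2l1, the factor that restores proteasome synthesis, and Ngly1, which activates it, changed by 0.20 and 0.14 and did not pass. Cytosolic peptidases that destroy or trim peptides after the proteasome split. Lap3 read 7.24, 7.36 and 7.40 against 6.05, 6.45 and 6.05, or 2.22-fold less (limma adjusted p = 2.8e-04), and Thop1 and Tpp2 fell by 0.82 and 0.59. Npepps, another aminopeptidase, rose by 0.57, and Nrd1, a metalloprotease, by 0.46. Of the 9 genes in that list 2 rose (22.2%, beside 24.6% of all genes) and 3 fell (33.3%, beside 17.5%). The general chaperones of class I folding, Calr, Canx and Pdia3, changed by -0.21, -0.24 and -0.05 and did not pass.

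Transcription factors and kinases that lead from interferon to these promoters were mostly higher, with 9 of 12 called higher (75%, beside 24.6% of all genes) and 0 lower, at a median change of 0.77. Jak2, a receptor kinase of interferon gamma, read 5.87, 5.77 and 5.70 against 7.05, 6.90 and 6.94, or 2.26-fold more (limma adjusted p = 7.4e-05). Rfx5 and Rfxank, parts of the complex that carries Nlrc5 to class I promoters, rose by 1.09 and 1.04, and Irf9 by 1.38. The third part of that complex, Rfxap, changed by 0.15 and did not pass. The receptor chains Ifngr1 and Ifngr2 changed by -0.06 and -0.19 and did not pass. This list was chosen knowing that interferon-response genes rise in these data, so its direction is no independent evidence. Of 6 tested class I-like genes outside the main set, 2 rose (33.3%, beside 24.6% of all genes) and 4 did not pass. Cd1d1, which presents lipids to NKT cells, rose by 1.09, from a mean of 3.88 to 4.97. Mr1, which presents metabolites to MAIT cells, rose by 0.46, from a mean of 2.62 to 3.09.

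**Figure D4:**
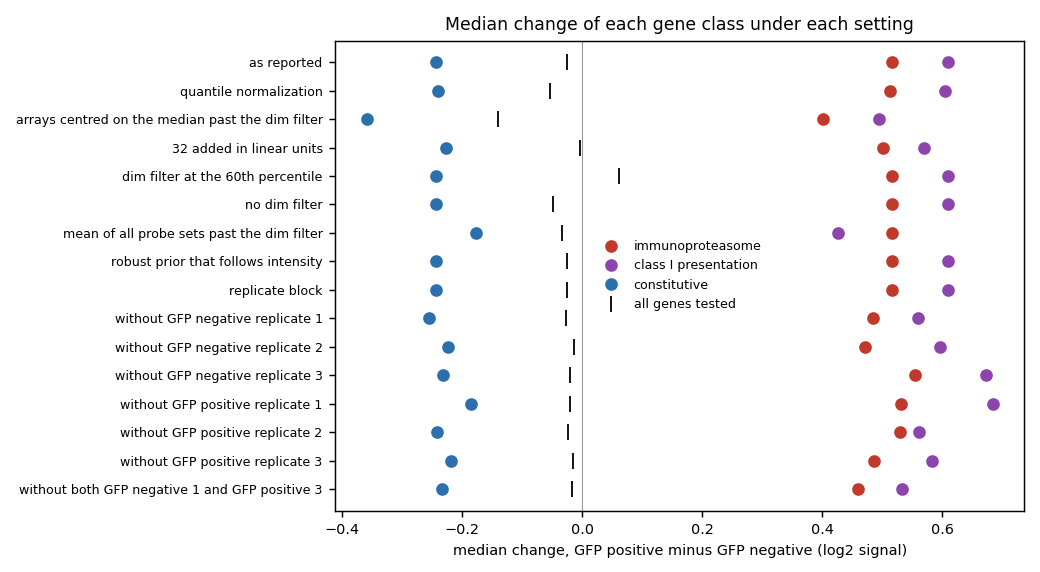
Median change in log2 signal (GFP positive minus GFP negative) of the 4 immunoproteasome, 10 class I presentation and 41 constitutive genes, and of all genes tested (black ticks), as reported and under each alternative setting. The constitutive median stays below that of all genes and the other medians above it in all 15 alternatives shown, with constitutive medians of -0.36 to -0.18.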

How the data were processed

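Per the labels' protocols, biotin-labelled RNA of sorted P14 cytotoxic T cells was put on Affymetrix mouse expression arrays, 1 per sample (3 GFP positive, 3 GFP negative). The deposited values are log2 signals, a unit read from their range. Affymetrix Expression Console is the tool in the submitters' processing notes. How it summarised and normalized the arrays is not stated in them. Precision is limited by the number of arrays.

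The deposited log2 values were used as they are. Of 45101 probe sets, 34945 carry 1 symbol; those with several name no gene here. Each gene was represented by its probe set of highest mean over the 6 arrays. A dim filter at the 40th percentile of mean signal over non-control probe sets (log2 1.27) left 13194 genes and 57 members. Limma 3.58.1 in R 4.3.3 compared the groups (lmFit and eBayes, two-sided, Benjamini-Hochberg over all genes tested, threshold 0.05), and a fit over all 27022 probe sets past the filter gave the values of further probe sets. The procedure was tested on simulated data. Members were named by role: the immunoproteasome, catalytic and class I genes in full, then the 5 largest constitutive falls and up to 4 genes of each partner list; other values were chosen after they were seen. Members, lists and motifs were chosen with earlier results of these data known. Once group means were subtracted, samples that share a replicate number correlated across genes at 0.47, 0.35 and 0.25. The labels give the same replicate numbers in both groups but do not state that samples are paired. With so few samples these correlations cannot establish a pairing, so a fit with the number as a block is an alternative. Alternatives also covered normalization, a linear offset of 32, dim filters, probe set choice, the variance prior and samples left out. Promoter windows are those of RefSeq (GRCm38.p6); no coordinates are given for probe sets.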

Additional observations from a re-analysis of the deposited data

How the results depend on the processing

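All 4 immunoproteasome genes and 9 class I genes were called higher in the fits with quantile normalization, an added 32, other dim filters, another prior, the replicate block and each sample left out in turn. Of the members, 8 rises and 9 falls were called under all 15 alternatives listed for each member, and no called member turned its direction under any; 20 values of 11 members that passed in neither fit changed sign. With the replicate block 13 members were called higher and 20 lower, beside 3371 and 2487 of the 13194 genes tested. The block changed no call of a member other than that of Psmd3. With 32 added in linear units 1 constitutive gene was called higher. Without GFP negative 1 and GFP positive 3 together 3325 genes were called in all, against 5557, and 11 members were lower, all of them constitutive. Leaving out 1 sample at a time gave 11 to 16 members lower and 11 to 15 constitutive falls, beside 1594 to 2433 of the 13194 genes tested. The median member change was then -0.13 to -0.066, against -0.10. That median was -0.13 after quantile normalization, -0.22 with centred arrays, -0.079 with 32 added and -0.11 without both samples. Why counts differ between settings was not tested. Most constitutive changes are near the size that 3 arrays a group resolve, so genes that did not pass may still differ.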

Other observations

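Among the 13 members called higher, GFP negative 3 was the highest control in 12 and GFP negative 1 the lowest in 9. The same controls showed no such order among the 18 constitutive falls, where GFP negative 1, 2 and 3 were the highest control in 6, 7 and 5 genes. This difference between the lists was not tested. GFP negative 3 also had the highest control signal of H2-Aa, H2-Eb1, Cd74 and Ms4a1, genes of antigen-presenting and B cells. It did not for H2-Ab1, Ciita and Cd79b, from the same lists. The part of such cells in the order of the controls was not tested.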
